A study of Mus musculus with 192 samples.

Results

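White and brown fat of wild-type mice kept on the ground were compared in the same 6 animals. The libraries were chosen by their labels, as epididymal white adipose tissue (eWAT) and inter-scapular brown adipose tissue (iBAT) of mice 03, 05, 06, 07, 08 and 10 with the wild-type genotype in the ground control condition (GC_WT). They are 12 of the 192 samples of the series, and the labels give the mice as 12 weeks old. The study gives that age for mice ready for launch, before the stay that the ground control simulated. The mice were therefore probably older when the tissue was taken. The study kept male C57BL/6J mice in single cages of the kind used on the space station, on the ground or in flight, and collected 9 tissues. The 3 other groups with both fats are used here for the same comparison. GC_KO mice (6) lack functional Nrf2, through the Nfe2l2 tm1Ymk allele in all cells, and stayed on the ground. FL_WT mice (6) were flown, and FL_KO mice (5, without FL04, which the study set aside) were flown and carry that allele. RNA came from unsorted tissue, so each library holds RNA of all cells in the piece taken from a depot of one animal. Which part of a depot was taken is not stated, and the study also used both depots for histology.

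White fat stores energy as triglyceride in large lipid droplets and releases hormones such as leptin. Brown fat burns lipid and glucose for heat: noradrenaline acts on adrenergic receptors, cAMP rises, lipolysis starts, and uncoupling protein 1 (Ucp1) in the inner mitochondrial membrane lets protons flow back without ATP synthesis. Brown adipocytes are therefore packed with mitochondria, whose respiratory chain is built from subunits encoded in the nucleus and in mitochondrial DNA. The inter-scapular and epididymal depots also arise at different places in the embryo, and transcription factors of body position differ between such places.

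The promoters of 5 genes are shown because they stand for the types of gene compared here, namely a heat-producing effector (Ucp1), an enzyme that activates thyroid hormone and is induced by cAMP (Dio2), the leptin gene (Lep), and a tissue-restricted and a general subunit of cytochrome c oxidase (Cox7a1 and Cox6a1). Each is the 250 bases before the gene's start, read 5′ to 3′ on the gene's strand from RefSeq, build GRCm38.p6. The windows are chr8:83290098-83290347 (plus strand) for Ucp1, chr12:90739039-90739288 (minus) for Dio2, chr6:29059971-29060220 (plus) for Lep, chr7:30183921-30184170 (plus) for Cox7a1 and chr5:115348959-115349208 (minus) for Cox6a1. Capitals mark matches, on either strand, to the letters of the cAMP response element (CRE, TGACGTCA), C/EBP (TTGCNNAA), ETS (CCGGAAG), NRF1 (GCGCA, then any base, then GCGC) or estrogen-related receptor (ERR, AAGGTCA) motifs, and no 2 matches shown overlap.
Ucp1: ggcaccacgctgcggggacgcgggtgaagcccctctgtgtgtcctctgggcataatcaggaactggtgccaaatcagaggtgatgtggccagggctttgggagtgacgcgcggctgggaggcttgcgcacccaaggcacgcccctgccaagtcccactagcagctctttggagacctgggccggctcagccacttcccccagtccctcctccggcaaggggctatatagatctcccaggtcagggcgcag
Dio2: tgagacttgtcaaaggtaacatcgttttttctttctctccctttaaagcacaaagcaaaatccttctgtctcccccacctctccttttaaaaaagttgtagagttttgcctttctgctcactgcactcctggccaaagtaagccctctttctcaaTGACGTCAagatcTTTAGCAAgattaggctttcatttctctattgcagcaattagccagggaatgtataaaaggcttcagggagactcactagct
Lep: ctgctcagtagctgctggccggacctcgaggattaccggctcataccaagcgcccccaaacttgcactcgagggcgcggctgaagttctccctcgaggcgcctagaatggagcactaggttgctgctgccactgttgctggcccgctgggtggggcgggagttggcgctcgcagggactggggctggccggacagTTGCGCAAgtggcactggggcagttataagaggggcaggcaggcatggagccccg
Cox7a1: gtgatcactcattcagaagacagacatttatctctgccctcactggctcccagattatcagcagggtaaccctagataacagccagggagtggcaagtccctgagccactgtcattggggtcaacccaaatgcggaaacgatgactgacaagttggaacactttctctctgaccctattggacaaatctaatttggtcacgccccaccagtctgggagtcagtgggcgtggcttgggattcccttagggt
Cox6a1: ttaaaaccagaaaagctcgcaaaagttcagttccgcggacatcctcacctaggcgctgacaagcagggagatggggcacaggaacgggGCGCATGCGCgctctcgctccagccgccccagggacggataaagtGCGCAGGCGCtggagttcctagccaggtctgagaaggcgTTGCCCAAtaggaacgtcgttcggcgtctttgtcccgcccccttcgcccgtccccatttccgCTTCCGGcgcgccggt
The Dio2 window holds a CRE match 95 to 88 bases before the start and a C/EBP match 82 to 75 bases before it. The Lep window holds a C/EBP match 55 to 48 bases before the start. In the Cox6a1 window, NRF1 matches lie 162 to 153 and 117 to 108 bases before the start, a C/EBP match 78 to 71 and an ETS match 16 to 10. The windows of Ucp1 and Cox7a1 hold none of these letters. A match describes the letters and is not a measured site.

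Of the 82 nuclear genes for respiratory chain and ATP synthase subunits, 68 have such a window, and 20.6% of these hold the NRF1 letters, against 4.23% of the 27025 genes with a RefSeq window. The CRE letters lie in 7.35% of them against 1.77%, the ERR letters in 8.82% against 4.7%, the ETS letters in 17.6% against 7.83% and the C/EBP letters in 10.3% against 10.8%. Of the 27 genes for upkeep and dynamics of mitochondria, all with a window, 14 hold the ETS letters (51.9%). Among the 10269 tested genes with a window, of 13927, the shares were higher for some motifs, at 15.4% for ETS, 9.21% for NRF1, 2.97% for CRE, 3.53% for ERR and 9.14% for C/EBP, so the ETS share of the respiratory chain genes is close to that of tested genes. These shares are descriptions without a test, and under 80% of the tested genes have a window.

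Expression is given as normalised CPM, the expected read count of a gene per 1000000 counts of its library after scaling by edgeR's TMM factors. Fold changes compare eWAT with iBAT of the same mouse in edgeR's quasi-likelihood test, log2 values above 0 mean higher in eWAT, ± gives the SE, and genes with a Benjamini-Hochberg adjusted p under 0.05 were called. The libraries held 15646951 to 15995092 expected counts in eWAT and 16092929 to 16308175 in iBAT. The 10 most abundant genes took 15.0% to 17.2% of the counts in eWAT and 36.7% to 42.1% in iBAT. With 13436 to 13971 genes over 1 TPM (transcripts per 1000000 transcripts) in eWAT and 10838 to 11553 in iBAT, the scale matters. On the TPM scale the median of 13915 tested genes was 2.67-fold higher in eWAT (1.42 on the log2 scale), and of the genes that limma called on TPM 92.8% were higher in eWAT, against 50.3% of those called on the TMM scale. All log2 values below are on the TMM scale, where the median of all tested genes was -0.003. TMM factors place the bulk of genes near 0, so a near-equal split of calls by direction comes with this scale. Of 253 named genes called, 34 had the other sign in limma on log2(TPM + 1), before any centring. Smaller folds toward iBAT below can therefore turn to eWAT on the TPM scale. Of the 36 gene lists with a tested member, 12 had a median of the other sign on the TPM scale. Once the median of all genes was taken out, 4 did, namely the lists for creatine and calcium cycling, hormone receptors, regional transcription factors and erythroid cells, so no direction is given for these. Taking out the median centres the TPM scale much as TMM factors do, so the other lists were not checked independently by it.

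The depots differed across most of the transcriptome. Of 13935 genes tested, 10572 were called (75.9%), 5316 of them higher in eWAT (38.1%) and 5256 higher in iBAT (37.7%). With a fold of at least 2 as a second criterion, 2913 genes were higher in eWAT (20.9%) and 2049 in iBAT (14.7%), and the libraries of both depots did not overlap in 7861 genes (56.4%). The 37 gene lists used here hold 717 genes with a row in the table, of which 611 passed the filter on low counts. Of these, 192 were higher in eWAT (31.4%), 359 in iBAT (58.8%) and 60 were not called. Shares of a list are best read against these background shares. Because unsorted tissue was measured, more cells of a type and more RNA per cell cannot be told apart.

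**Figure D1:**
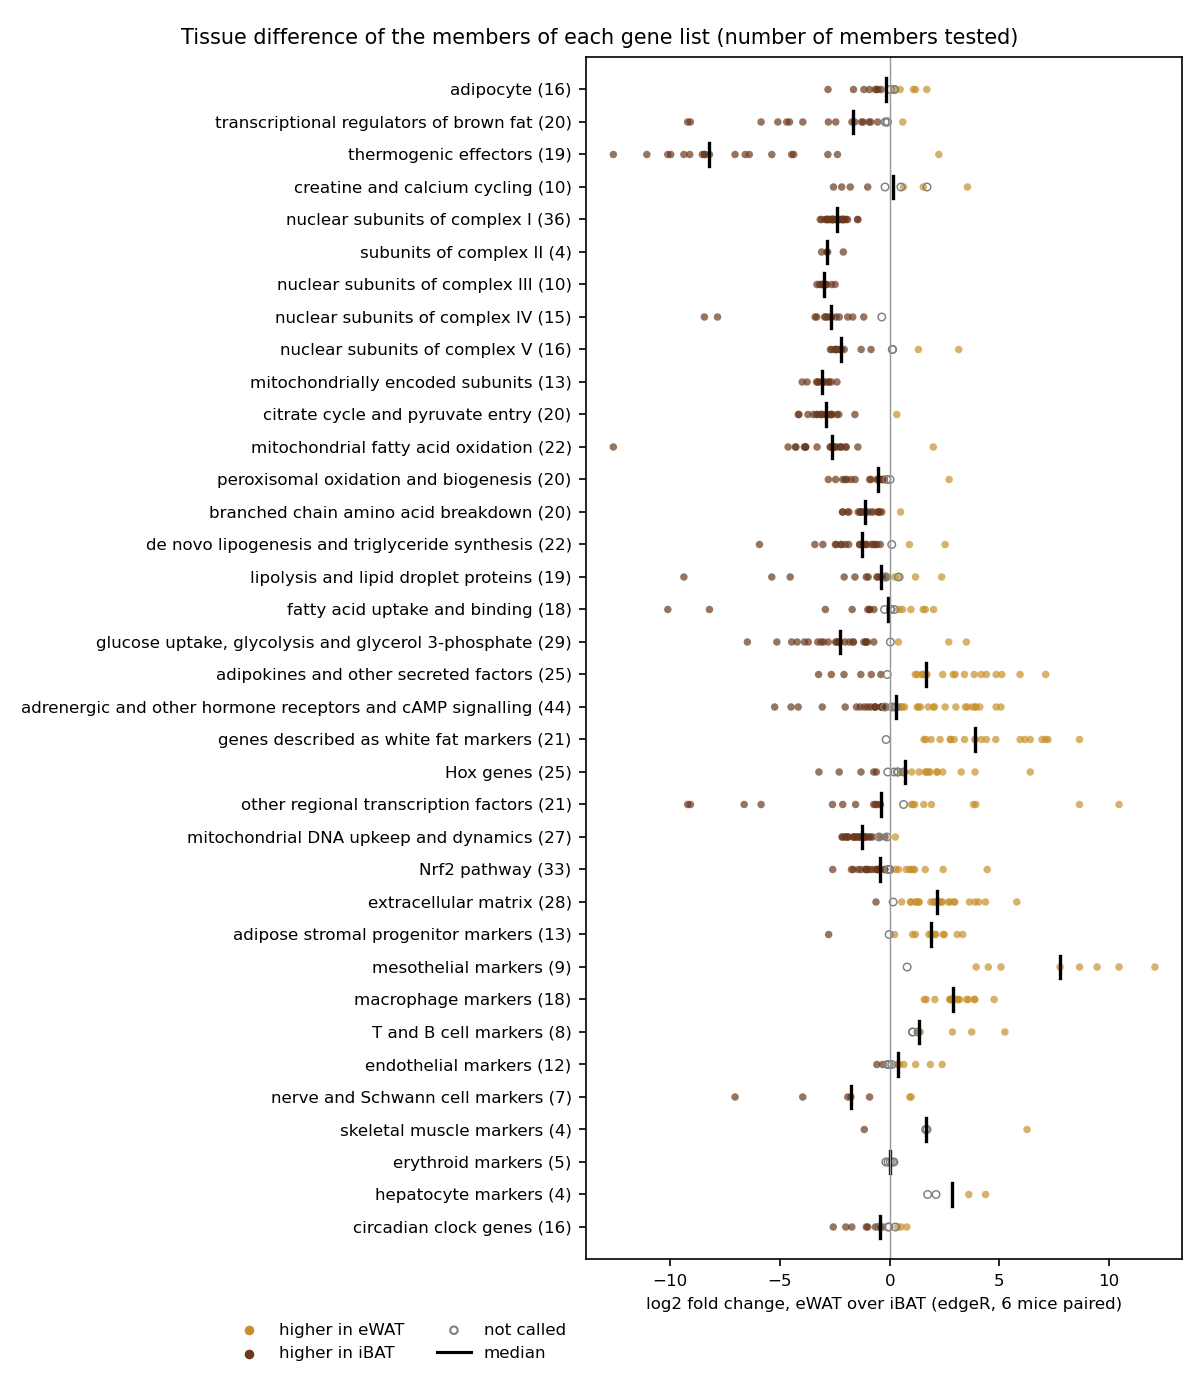
Log2 fold change of eWAT over iBAT for each tested member of the gene lists, with the number tested in brackets; filled points were called at an adjusted p under 0.05, open points were not, and black bars are medians. The medians of the lists of nuclear respiratory chain subunits lie between -3.00 and -2.22, thermogenic effectors reach -12.6, and all 18 macrophage markers lie above 0. Values are on the TMM scale, and 12 list medians change sign on the TPM scale before the median of all genes is taken out.

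The thermogenic effectors separated the depots most. All 19 were called, 18 of them higher in iBAT, and the median log2 fold change was -8.22. Ucp1 ranged from 2675 to 4943 CPM in iBAT (median 3893), and from 0.286 to 9.37 in eWAT (median 0.475). The eWAT libraries of mice 03 and 06 held 9.37 and 5.13 CPM, and the other 4 at most 0.53, so no library went against its label. The fold change of Ucp1 was -11.07 ± 0.74 (adjusted p = 5.43e-07), and it was -11.76 without mouse 03 and -11.71 without mouse 06. Fabp3, a cytosolic fatty acid carrier of oxidative tissues, was also highest among eWAT libraries in mice 03 and 06, with 1.66 and 0.82 CPM against 364 to 780 in iBAT (-10.12 ± 0.36).

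Cpt1b, the carnitine palmitoyltransferase of muscle and brown fat, gates entry of fatty acids into mitochondria and had the largest fold change named here. It ranged from 760 to 909 CPM in iBAT (median 849) and from 0 to 0.289 in eWAT, a fold change of -12.60 ± 0.33. The other isoform, Cpt1a, went the other way, with 51.0 to 80.2 CPM in eWAT and 9.37 to 20.2 in iBAT (1.99 ± 0.13, adjusted p = 4.72e-07). The fold changes of the isoforms thus had opposite signs, while both were read in iBAT.

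Cidea, a lipid droplet protein, ranged from 2365 to 2930 CPM in iBAT and from 2.53 to 7.78 in eWAT (-9.38 ± 0.28). Its relative Cidec, the droplet protein that goes with large droplets, had 3178 to 4663 CPM in eWAT and 1486 to 1771 in iBAT (1.18 ± 0.09). Otop1, a proton channel, was at 216 to 242 CPM in every iBAT library and at most 0.559 in eWAT (-9.98 ± 0.27). Elovl3, which elongates fatty acids, had 147 to 271 CPM in iBAT and 0 to 1.28 in eWAT (-9.12 ± 0.38, and -10.05 without mouse 10).

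Dio2, chosen here after its values were seen, had 110 to 411 CPM in iBAT and 0.278 to 1.57 in eWAT (-8.43 ± 0.29). Of the uncoupling protein relatives, Ucp3 was higher in iBAT by 5.21-fold (-2.38 ± 0.11). Ucp2 was the effector that went the other way, with 112 to 170 CPM in eWAT and 25.5 to 31.1 in iBAT (2.24 ± 0.09). It is widely expressed in immune cells, and the summed level of 18 macrophage markers was 916 to 1148 CPM in eWAT and 87.1 to 193 in iBAT. The part of macrophages in the Ucp2 difference was not tested.

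**Figure D2:**
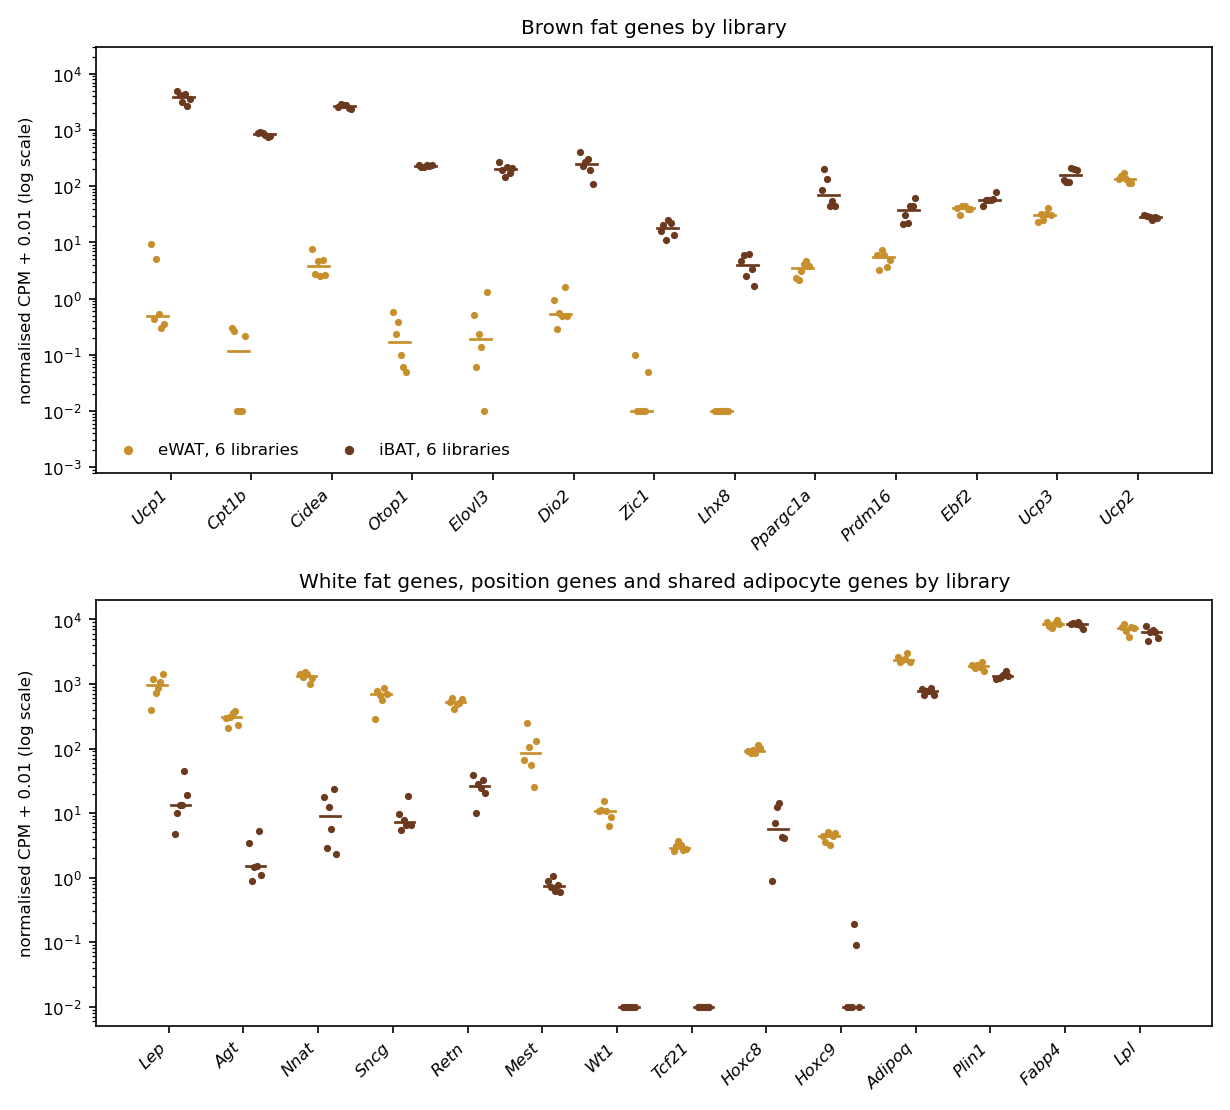
Normalised CPM + 0.01 on a log scale for single genes, with 1 point per library and bars at the median of the 6 eWAT and the 6 iBAT libraries. For Ucp1 the highest eWAT library (mouse 03, 9.37 CPM) stays far under the lowest iBAT library (2675 CPM), whereas the depots overlap for Fabp4.

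Also named by the size of the difference, Cyp2b10, a cytochrome P450 enzyme, had 72.6 to 352 CPM in iBAT and at most 0.741 in eWAT (-8.51 ± 0.22). Mfsd2a, a lysolipid transporter, spread widely among iBAT libraries, from 3.27 to 175 CPM, and was at most 0.28 in eWAT (-9.00 ± 0.32). Aspg, an asparaginase, had 114 to 223 CPM in iBAT against 0.264 to 0.746 in eWAT (-8.54 ± 0.17). Gm10032 and Fabp3-ps1 completed the 12 largest. Fabp3-ps1 is a pseudogene of Fabp3 by its name, so reads may be divided between them and its value is uncertain (-9.31 ± 0.37, and -10.46 without mouse 06).

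Of the 20 transcriptional regulators of brown fat, 16 were higher in iBAT and 1, Klf11, in eWAT, with a median of -1.66 (0.18 on the TPM scale). The Klf11 call (0.60 ± 0.24) was lost without any of mice 05 to 08 (adjusted p = 0.0818 to 0.125). Zic1, a zinc finger factor of the dorsal trunk, was read in 2 of 6 eWAT libraries with at most 0.0932 CPM, and had 11.1 to 24.9 CPM in iBAT (-9.21 ± 0.31, and -10.12 without mouse 03). Ppargc1b, a coactivator of mitochondrial genes, rose 15.6-fold in iBAT, from 4.22 to 7.46 CPM in eWAT to 72.7 to 117 CPM (-3.96 ± 0.13). Esrra, the nuclear receptor that ERR motifs are named for, was 5.5-fold higher in iBAT (-2.46 ± 0.09), and Gabpa, which binds ETS motifs, 3.3-fold (-1.72 ± 0.06). Nrf1 was not called (-0.20 ± 0.10).

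Some familiar regulators, picked here after their values were seen, were far from exclusive to a depot. Prdm16 had 3.2 to 7.37 CPM in eWAT and 21.2 to 61.2 in iBAT (-2.80 ± 0.28). Ppargc1a had 2.18 to 4.71 and 44.0 to 206 CPM (-4.57 ± 0.41). Ebf2, by contrast, had 31.4 to 43.8 CPM in eWAT and 44.2 to 79.3 in iBAT, a 1.46-fold difference (-0.55 ± 0.11, adjusted p = 0.00144). Lhx8 was at 0 in all eWAT libraries and at 1.68 to 6.19 CPM in iBAT, and was at least 29.5-fold higher there, with 3 counts per library as the floor.

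Mitochondrially encoded genes (37 genes) took 27.7% to 32.2% of the counts in iBAT (29.5% ± 1.8, SD, n = 6) and 6.56% to 8.63% in eWAT (7.5% ± 0.871, SD, n = 6). The difference of -22 percentage points (SD 1.92) had the same sign in 6 of 6 mice, with p = 0.0312 in an exact two-sided permutation test within mice, the smallest that 6 pairs allow. As a share of TPM, the values were 35.9% and 12.2%. All 13 mitochondrially encoded subunits were higher in iBAT, with a median log2 fold change of -3.06. mt-Co1, a catalytic subunit of cytochrome c oxidase, ranged from 112090 to 140001 CPM in iBAT and from 16249 to 21651 in eWAT (-2.78 ± 0.16). The libraries were made from poly(A) RNA, so these shares also hold how well each transcript was captured.

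The nuclear subunits moved the same way. Of 82 genes, 81 were tested, 76 were higher in iBAT and in these 76 the libraries did not overlap, with a median of -2.48. Together they held 1.9% of TPM in eWAT and 4.23% in iBAT. The medians of the complexes were close to each other, at -2.42 for complex I (36 of 36 called), -2.85 for complex II (4 of 4), -3.00 for complex III (10 of 10), -2.67 for complex IV (14 of 15) and -2.22 for complex V (14 of 16). Ndufv1, which carries the NADH site of complex I, went from 75.1 to 81.9 CPM in eWAT to 642 to 732 in iBAT (-3.10 ± 0.06). Sdha, the flavoprotein of complex II, went from 372 to 442 to 2659 to 3128 CPM (-2.86 ± 0.09). Uqcrc1 of complex III was 9.23-fold higher in iBAT (-3.21 ± 0.07) and Cycs, cytochrome c, 9.97-fold (-3.32 ± 0.11).

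Within complex IV the paralogs differed. Cox7a1, the isoform of heart, muscle and brown fat, had 161 to 324 CPM in iBAT and 0.333 to 1.16 in eWAT (-8.45 ± 0.15). Its general counterpart Cox7a2 had 163 to 268 and 33.9 to 43.7 CPM (-2.45 ± 0.09). Cox8b had 465.9 to 741.5 CPM in iBAT and 1.48 to 4.03 in eWAT (-7.85 ± 0.14), whereas Cox8a was 3.77-fold higher in iBAT (-1.91 ± 0.10). In iBAT the restricted isoforms had mean levels of 690.1 TPM (Cox7a1) and 1941 TPM (Cox8b), beside 336 TPM for Cox7a2 and 1591 TPM for Cox8a. In eWAT they had 5.45 and 23.4 TPM beside 166 and 1139. Not every restricted isoform did this. Cox6a2 was nearly absent from both depots, at most 0.0952 CPM in eWAT and 0.533 in iBAT, and Cox4i2 was not called (-0.37 ± 0.23), while Cox6a1 and Cox4i1 were 7.81-fold and 4.91-fold higher in iBAT. Of the promoters printed above, that of Cox7a1 belongs to a restricted isoform and that of Cox6a1 to a general isoform of another pair. Any link of their motif letters with these levels was not tested.

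**Figure D3:**
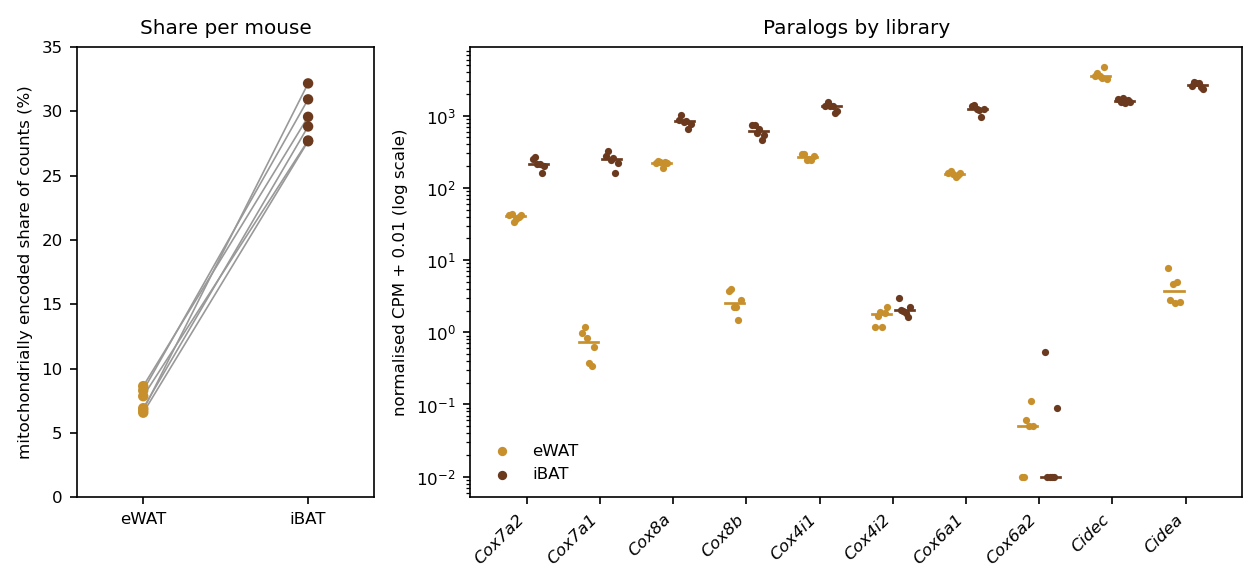
Left, percent of counts from mitochondrially encoded genes, with a line for each of the 6 mice; right, normalised CPM + 0.01 (log scale) of cytochrome c oxidase and Cide paralogs, 1 point per library and bars at medians. The share rises in each mouse, and Cox7a1 and Cox8b are at most 1.16 and 4.03 CPM in eWAT whereas Cox7a2 and Cox8a are at least 33.9 and 187.

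ATP synthase held the exceptions. Of its 16 nuclear genes 12 were higher in iBAT, among them Atp5b, the catalytic beta subunit, with 5263 to 6292 CPM against 919 to 1062 in eWAT (-2.48 ± 0.09). Atp5g1, one of the genes for the c subunit of the proton ring, went the other way, with 7.22 to 9.42 CPM in eWAT and 0.639 to 1.7 in iBAT (3.15 ± 0.19, adjusted p = 2.5e-07). Atpif1, which encodes the inhibitor of the enzyme, had 11.8 to 17.4 CPM in eWAT and 4.11 to 7.56 in iBAT (1.31 ± 0.11). The other c subunit genes, Atp5g2 and Atp5g3, were not called (0.12 and 0.13). This family has processed pseudogenes that may share reads, so its values are uncertain.

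Fuel oxidation followed the respiratory chain. In the citrate cycle list 19 of 20 genes were higher in iBAT (median -2.91), including Sucla2 of succinyl-CoA ligase, with 1368 to 1616 CPM against 76.9 to 90.9 in eWAT (-4.17 ± 0.08). Pcx, pyruvate carboxylase, was 1.25-fold higher in eWAT (0.32 ± 0.10, adjusted p = 0.0113). Of 22 genes of mitochondrial fatty acid oxidation, 21 were higher in iBAT and Cpt1a was the exception (median -2.64). Acadvl, the very long chain acyl-CoA dehydrogenase, had 2057 to 2531 CPM in iBAT and 111 to 130 in eWAT (-4.28 ± 0.09). Acaa2, the last thiolase step, was 24.8-fold higher in iBAT.

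Peroxisomal genes were higher in iBAT in 17 of 20 cases, by less (median -0.55, and 0.94 on the TPM scale). Abcd2, a peroxisomal transporter of fatty acids, was the one higher in eWAT, with 465 to 623 CPM against 58.9 to 137 (2.71 ± 0.11), while its relative Abcd3 was 5.52-fold higher in iBAT. The breakdown of branched chain amino acids gave 19 of 20 higher in iBAT (median -1.14, and 0.28 on the TPM scale), led by Bckdha, a subunit of the rate-limiting dehydrogenase (-2.16 ± 0.07). Bcat2, which starts the pathway, was 1.41-fold higher in eWAT (0.50 ± 0.09).

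The genes that maintain mitochondria moved less than those of the respiratory chain. Of 27, 24 were higher in iBAT and 1 in eWAT, with a median of -1.28 (0.10 on the TPM scale). Opa1, which fuses inner membranes, had 233.5 to 270.2 CPM in iBAT and 59.3 to 68.8 in eWAT and Tufm, the mitochondrial elongation factor, was 4.44-fold higher in iBAT (-2.15 ± 0.06). Oma1, the protease that cleaves Opa1, was 1.19-fold higher in eWAT (0.26 ± 0.09, adjusted p = 0.0205), a call lost without mouse 05, 06 or 08 (adjusted p = 0.0555 to 0.06).

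Lipid synthesis was higher in iBAT in 19 of 22 genes (median -1.28, and 0.06 on the TPM scale). Elovl6, which elongates newly made palmitate, had 1001 to 1434 CPM in iBAT and 11.1 to 34.4 in eWAT (-5.94 ± 0.24). Fasn, fatty acid synthase, had 21095 to 38269 CPM in iBAT and 2288 to 5100 in eWAT (-3.05 ± 0.20), and was picked here after its values were seen. Mlxipl, the glucose-sensing factor ChREBP, was 4.63-fold higher in iBAT, and Agpat2, which makes phosphatidic acid, 5.55-fold. Scd1, the delta-9 desaturase, was among the most abundant genes of both depots, with 17696 to 24080 CPM in eWAT and 25208 to 48525 in iBAT (-0.83 ± 0.18). Mogat1 and Mogat2, which make diglyceride from monoglyceride, were higher in eWAT (0.90 ± 0.11 and 2.52 ± 0.45).

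Glucose use showed 25 of 29 genes higher in iBAT (median -2.29). Gpd1, which turns a glycolytic intermediate into glycerol 3-phosphate, reached 8203 to 11716 CPM in iBAT and 567 to 940 in eWAT (-3.71 ± 0.16). Pkm, Eno1 and Pfkl of glycolysis were 8.72-fold, 8.09-fold and 9.71-fold higher in iBAT. Of the transporters, Slc2a4 (Glut4) was 3.14-fold higher in iBAT (-1.65 ± 0.11) and Slc2a5, a fructose transporter, 89.7-fold (-6.49 ± 0.41). Slc2a3 (Glut3) was 11.2-fold higher in eWAT (3.49 ± 0.15) and Slc2a1 (Glut1) 1.31-fold. Hk3, a hexokinase of blood cells, had 2.28 to 4.14 CPM in eWAT and 0.176 to 0.85 in iBAT (2.69 ± 0.28), in the depot with the higher macrophage markers, whose part in it was not tested.

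Genes shared by all adipocytes moved both ways. Of 16, 5 were higher in eWAT, 8 in iBAT and 3 were not called, from -2.81 to 1.69 with a median of -0.17 (1.23 on the TPM scale). Fabp4, the adipocyte fatty acid carrier, had 7300 to 9966 CPM in eWAT and 7015 to 9108 in iBAT (0.03 ± 0.11, adjusted p = 0.793), and Lpl, lipoprotein lipase, was not called either (0.21 ± 0.16). Adiponectin (Adipoq) had 2216 to 3044 CPM in eWAT and 673 to 871 in iBAT (1.69 ± 0.07). Cebpb, a factor induced by cAMP, was 7.03-fold higher in iBAT (-2.81 ± 0.20).

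Droplet proteins divided by depot. In the lipolysis list 4 were higher in eWAT and 12 in iBAT of 19 tested (median -0.40, and 1.05 on the TPM scale). Plin1 was 1.39-fold higher in eWAT (0.48 ± 0.09), Plin4 5.16-fold (2.37 ± 0.10), and Plin5, the perilipin that tethers droplets to mitochondria, 41.5-fold higher in iBAT (-5.38 ± 0.12). Lipe, hormone-sensitive lipase, was 1.17-fold higher in eWAT (adjusted p = 0.0431), a call lost when any of mice 03, 05, 06, 07 or 08 was left out (adjusted p = 0.0505 to 0.132). In the uptake list 6 were higher in eWAT and 8 in iBAT of 18 (median -0.10, and 1.29 on the TPM scale). Caveolar Cav1 and Cavin1 were 3.08-fold and 3.99-fold higher in eWAT, and Cd36, the fatty acid translocase, 1.5-fold (0.58 ± 0.07).

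Genes described as white fat markers were higher in eWAT almost throughout. Of 21 tested white fat markers, 20 were higher in eWAT and Rb1 was not called, with a median of 3.902. Lep ranged from 391 to 1440 CPM in eWAT (median 966) and from 4.71 to 44.6 in iBAT (median 13.3), a 61.5-fold difference (5.94 ± 0.29, adjusted p = 6.61e-08). Agt, angiotensinogen, had 212 to 383 CPM in eWAT and 0.879 to 5.18 in iBAT (7.11 ± 0.24). Nnat, the imprinted neuronatin, had 1002 to 1546 and 2.35 to 23.3 CPM (7.21 ± 0.49). Sncg, gamma-synuclein, had 283 to 883 and 5.54 to 18.5 CPM (6.16 ± 0.29).

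Mest, an imprinted gene that goes with fat mass, ranged from 25.1 to 249 CPM among eWAT libraries and from 0.587 to 1.03 in iBAT (6.94 ± 0.29). Its spread among eWAT libraries is wide, and no eWAT library came near the iBAT range. Others of the 12 largest differences were C6 of the complement cascade (7.91 ± 0.17), Slc6a13, a GABA and taurine transporter (6.81 ± 0.22), Sult1e1, estrogen sulfotransferase (6.68 ± 0.24), and Serpina3n, with 390 to 522 CPM against 2.46 to 12.3 (6.21 ± 0.31).

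Among adipokines and other secreted factors, 18 of 25 tested members were higher in eWAT and 6 in iBAT (median 1.67). Cfd (adipsin) had 5246 to 9955 CPM in eWAT and 489 to 1566 in iBAT (2.89 ± 0.18), and Inhbb, an activin subunit, was 34.5-fold higher in eWAT. Secreted factors higher in iBAT were Nampt (4.24-fold), Cxcl14 (9.46-fold), Angptl8 (6.33-fold), Fst (2.49-fold), Vegfa (1.79-fold) and Nrg4 (1.32-fold). On the TPM scale the medians of Nrg4, Vegfa and Fst were higher in eWAT, at 110, 218 and 3.19 TPM against 56.3, 153 and 2.57. Those of Nampt, Cxcl14 and Angptl8 were higher in iBAT on both scales. Fgf21, Bmp8b, Il6 and Tnf did not pass the filter on low counts and were not tested.

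Receptors and cAMP signalling gave 21 higher in eWAT and 19 in iBAT of 44, with members of a family on opposite sides. The alpha-1A receptor Adra1a had 75.4 to 95 CPM in iBAT and 3.82 to 7.05 in eWAT (-4.17 ± 0.15), and Adrb1 was 2.86-fold higher in iBAT (-1.52 ± 0.22). Adrb3, the main beta receptor of rodent fat, had 514 to 788.5 CPM in eWAT and 172 to 340 in iBAT (1.31 ± 0.10), and was picked here after its values were seen. Of the adenylyl cyclases, Adcy5 had 168 to 226 CPM in eWAT and 1.23 to 10.8 in iBAT (5.07 ± 0.29). Adcy3 had 15.99 to 18.64 CPM in eWAT and 297 to 643 in iBAT (-4.50 ± 0.15). Pde4d, which breaks down cAMP, was 37.9-fold higher in iBAT (-5.24 ± 0.18), and Gnas, the stimulatory G protein, 4.08-fold.

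Genes of body position separated the depots without overlap in several cases. Wt1 and Tcf21, factors of the coelomic lining and visceral mesenchyme, were at 0 in all iBAT libraries, with 6.38 to 15.4 and 2.61 to 3.62 CPM in eWAT, at least 41.1-fold and 11.7-fold higher there. Tbx5 had 5.16 to 8.88 CPM in iBAT and at most 0.0927 in eWAT (-6.63 ± 0.24). Osr1 and Gata6 were 14.1-fold and 15.2-fold higher in eWAT. Of 39 Hox genes 25 were tested, 15 were higher in eWAT and 5 in iBAT (median 0.69). Hoxc9 had 3.2 to 5.04 CPM in eWAT and was at 0 to 0.177 in iBAT (6.41 ± 0.46, and 7.52 without mouse 07), and Hoxc8 had 84 to 112 and 0.889 to 14.3 CPM (3.89 ± 0.39). The 5 higher in iBAT all lie in the Hoxa cluster, namely Hoxa2, Hoxa3, Hoxa4, Hoxa5 and Hoxa9. Hoxa4 had 13.4 to 21.3 CPM in iBAT and 3.11 to 4.01 in eWAT (-2.30 ± 0.10).

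The Nrf2 pathway, which the study examined, was split. Of 33 tested members 10 were higher in eWAT and 19 in iBAT, with a median of -0.44 (0.98 on the TPM scale). Nfe2l2 itself, the gene for Nrf2, had 60.0 to 86.3 CPM in eWAT and 85.4 to 105 in iBAT (-0.44 ± 0.06). On the TPM scale it was higher in eWAT, at 58.1 to 87.9 TPM against 35.6 to 40.5, so its direction depends on the scale. Nqo1, a quinone reductase, was 5.41-fold higher in eWAT (2.44 ± 0.23) and Gsta3, a glutathione transferase, 21.8-fold (4.44 ± 0.22). Gstm1 and Gstm2 were 2.2-fold and 3.07-fold higher in eWAT. Tkt and Taldo1 of the pentose phosphate pathway were 6.05-fold and 3.16-fold higher in iBAT, and Srxn1, sulfiredoxin, 3.35-fold. Mouse glutathione transferases of the same class, such as Gstm1 and Gstm2, are close in sequence, so reads may be divided between them.

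Other cell types moved with the depots. All 18 macrophage markers were higher in eWAT (median 2.88), and their summed level was 916 to 1148 CPM in eWAT and 87.1 to 193 in iBAT. Lgals3 was 27.1-fold and Lyz2 9.1-fold higher in eWAT. Of 8 tested T and B cell markers 5 were higher in eWAT, with sums of 151 to 593 and 6.22 to 30.3 CPM, most of it Ighm, the IgM heavy chain (140 to 548 CPM in eWAT). Of 14 progenitor markers 13 were tested and 11 were higher in eWAT (sums 365 to 481 and 146 to 226 CPM), among them Cd34, Pdgfra and Cd55. Dlk1 was 6.89-fold higher in iBAT. Matrix genes went with them, with 26 of 28 higher in eWAT (median 2.17), such as Thbs1 at 59.6 to 374 and 2.05 to 4.25 CPM (5.79 ± 0.24) and Dcn (2.24 ± 0.12), and Postn 1.54-fold higher in iBAT. Endothelial sums were close on the CPM scale, at 1030 to 1244 and 900.1 to 1060 CPM, with 7 of 12 markers higher in eWAT and 2 (Kdr, Flt1) in iBAT. On the TPM scale the endothelial sums were 959 to 1254 in eWAT and 296 to 335 in iBAT. Kdr and Flt1 were higher in eWAT on that scale, with medians of 57.3 and 48.3 TPM against 26.4 and 27.7. The part of these cells in the differences of other genes was not tested.

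Of 9 tested mesothelial markers 8 were higher in eWAT. Their sum was 15.2 to 198 CPM in eWAT and 5.03 to 8.27 in iBAT, where 4 of 12 were at 0. Upk3b, a marker of the lining of body cavities, ranged from 1.57 CPM in mouse 08 to 73 in mouse 06 and was at 0 in iBAT, at least 129-fold higher in eWAT. Msln, mesothelin, went the same way, with 0.571 CPM in mouse 08 and up to 18.2 in eWAT (8.65 ± 0.36, and 10.18 without mouse 10). Wt1, by contrast, was 6.38 CPM in the mouse 08 library and 8.59 to 15.4 in the other eWAT libraries. Slpi, an inhibitor of proteases in secretions, was at 0 in iBAT and at 2.14 to 8.68 CPM in eWAT, at least 21.1-fold higher.

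**Figure D4:**
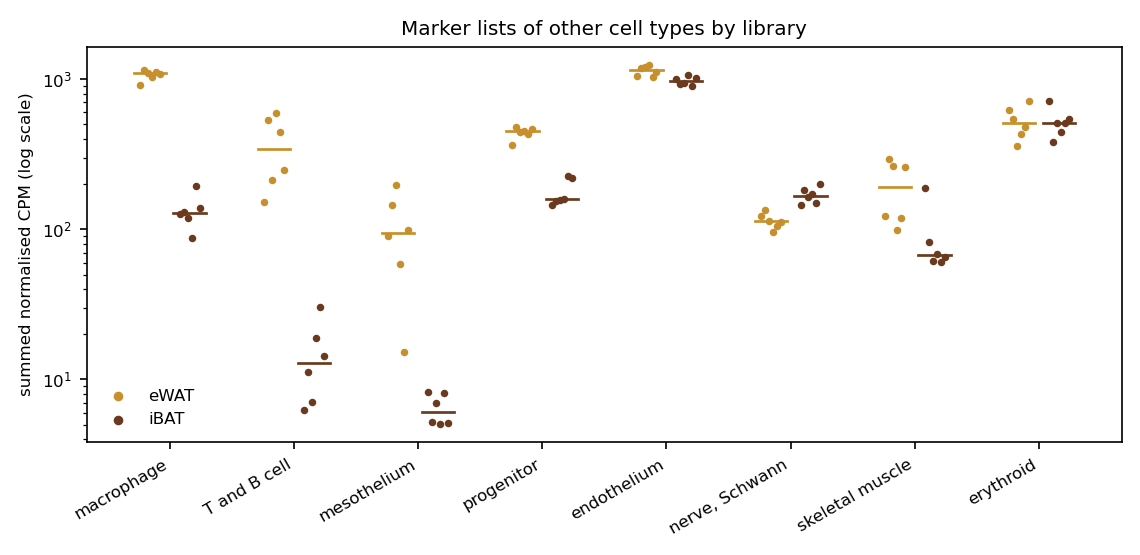
Summed normalised CPM (log scale) of marker lists of other cell types, with 1 point per library and bars at medians. Macrophage, T and B cell and progenitor sums of eWAT lie above those of iBAT without overlap, whereas endothelial and erythroid sums overlap or nearly so, and 1 iBAT library (mouse 03) stands apart in the skeletal muscle list. On the TPM scale, not shown, endothelial and erythroid sums were higher in eWAT without overlap.

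Markers of neighbouring tissues were uneven among libraries. Skeletal muscle markers summed to 190 CPM in the iBAT library of mouse 03 and to 60.2 to 81.8 in the other 5. There Acta1, skeletal actin, was 19.6 CPM against at most 0.695, and Atp2a1 18.5 against at most 0.92. In eWAT Acta1 was at 69.0 to 260 CPM in all libraries, Ckm, muscle creatine kinase, was at most 0.09, and Myl1, a myosin light chain, was at 24.3 to 30.6 CPM. Acta1 was higher in eWAT (6.26 ± 0.86, and 8.38 without mouse 03) and Myl1 in iBAT (-1.16 ± 0.07). Alb, albumin, reached 196 CPM in the eWAT library of mouse 10 and was 9.93 to 52.9 in the others (3.60 ± 0.98 against iBAT, 2.64 without mouse 10, 4.98 without mouse 03). Epididymal markers (18) did not pass the filter, and their sum was at most 2.84 CPM. The 5 tested erythroid markers had log2 values from -0.18 to 0.19 and were not called.

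Of 7 tested nerve and Schwann cell markers, 5 were higher in iBAT and 2, Pmp22 and Stmn2, in eWAT. Their median was -1.77, and 0.22 on the TPM scale. S100b, which is both a glial marker and a brown adipocyte gene, had 43.7 to 87.8 CPM in iBAT and 0.137 to 0.834 in eWAT (-7.05 ± 0.22). The glial factor Sox10 was 15.6-fold higher in iBAT at low counts, with 0.967 to 3.35 CPM against at most 0.32 (-3.97 ± 0.48). Th and Dbh of sympathetic nerves did not pass the filter.

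Levels in the other 7 tissues of the GC_WT mice show which of these genes the fats share with other organs. On the TPM scale, Lep had a median of 735 TPM in eWAT and at most 1.5 in any library outside the fats. Ucp1 had a median of 2251 TPM in iBAT, and 12.2 to 82.7 in temporal bone libraries. Elovl3 had 93.8 to 158 TPM in iBAT and 23.9 to 226 in liver. Cyp2e1, an alcohol-oxidising P450 known from hepatocytes, had medians of 7349 TPM in eWAT, 6361 in liver and 141 in iBAT, and on the CPM scale was 20.7-fold higher in eWAT than in iBAT (4.37 ± 0.26). Zic1 was at a median of 4.49 TPM in iBAT, 32.9 in cerebrum and 107 in temporal bone (5.7 to 286). Thymus libraries were made by ribosomal depletion and are not on the same footing.

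The same comparison was made in the other groups, which share no sample with GC_WT. In GC_KO mice 10451 of 13991 genes were called (74.7%), in FL_WT mice 10503 of 14001 (75%) and in FL_KO mice 9929 of 14025 (70.8%). Of the genes called in GC_WT and tested in GC_KO, 99.1% had the same direction and 90.3% were called in it. For FL_WT the shares were 96.2% and 86%, and for FL_KO, with 1 mouse less, 94.8% and 81.6%. Ucp1 was at -12.38 ± 0.50 in GC_KO, -12.10 ± 0.33 in FL_WT and -12.47 ± 0.50 in FL_KO. Lep was at 4.25 ± 0.23, 6.26 ± 0.42 and 5.88 ± 0.56.

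**Figure D5:**
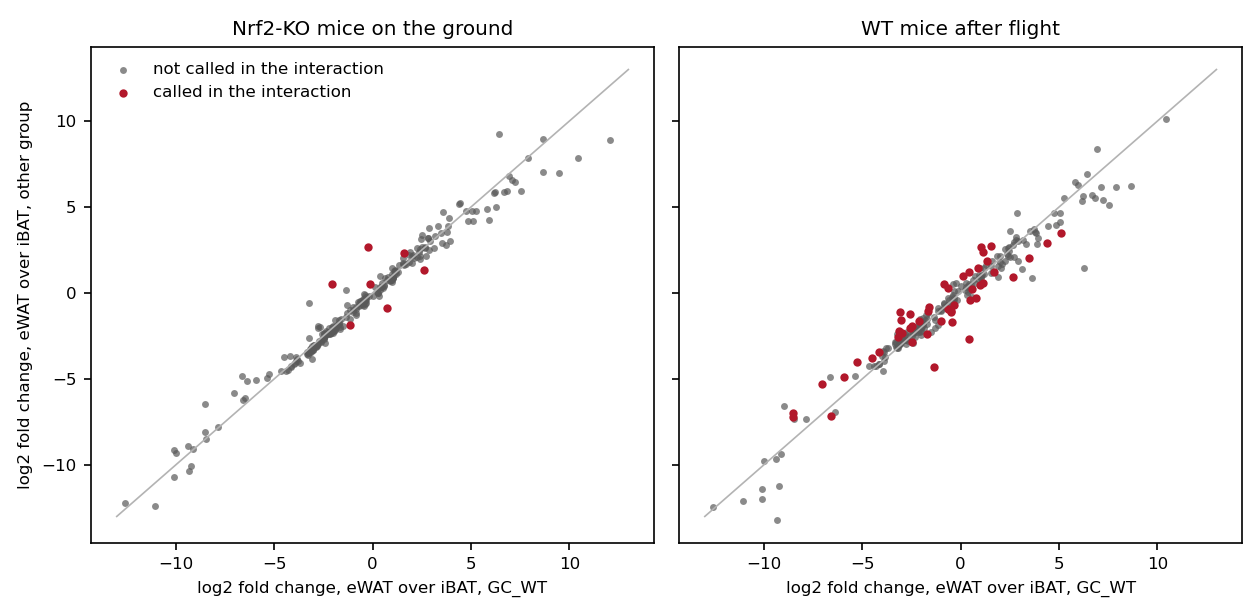
Log2 fold change of eWAT over iBAT for the named genes in GC_WT mice (x axis) and in GC_KO (left) or FL_WT mice (right), with the diagonal of equal values; red points were called in the test of the interaction. The genes were named by their GC_WT values, and most lie along the diagonal in both panels, with more red points for flight.

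Whether a tissue difference depended on genotype or flight was tested as an interaction, in which both tests share the GC_WT libraries. For the knockout a change was called in 22 of 14959 genes (0.147%), 10 toward eWAT and 12 toward iBAT, and 2 of 634 list members, Gstm2 and Myl1, were among them. At an unadjusted p under 0.05 there were 1393 genes, so a gene not called is not shown to be unchanged. Gstm2 went from 1.62 ± 0.08 in GC_WT to 2.31 ± 0.06 in GC_KO (change 0.69 ± 0.10, adjusted p = 0.0156). Myl1, a myosin light chain, went from -1.16 ± 0.07 to -1.85 ± 0.08 (change -0.69 ± 0.11, adjusted p = 0.0283).

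Flight changed the tissue difference in 1440 of 14892 genes (9.67%), 728 toward eWAT and 712 toward iBAT, and in 111 of 634 list members (17.5%). Complex I had 10 of 36 members called, all toward eWAT (median change 0.33), and complexes III and IV had 3 of 10 and 4 of 15, also toward eWAT. Of complex V (16), complex II (4) and the mitochondrially encoded subunits (13) edgeR called 0, with 6, 0 and 2 at an unadjusted p under 0.05. DESeq2 called 5, 0 and 0 of these and limma 3, 0 and 0. Lipid synthesis had 9 of 22 called, 8 of them toward eWAT (median change 0.55). Elovl6 went from -5.94 ± 0.24 in GC_WT to -4.87 ± 0.18 in FL_WT (change 1.04 ± 0.29, adjusted p = 0.0377), so it was still higher in iBAT. The Nrf2 pathway had 12 of 33 called, 10 toward eWAT, with Gstm1 from 1.14 ± 0.07 to 2.39 ± 0.09 (change 1.24 ± 0.10, adjusted p = 3.23e-05). Of 5 erythroid markers 4 were called toward eWAT as well (median change 0.98), and their part in these changes was not tested. Flight mice were dissected after return to Earth, so flight, landing and return cannot be told apart. The ground control was a separate run in Japan later in the year, and flight mice were dissected in California. Run, season and site therefore cannot be told apart from flight either.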

How the data were processed

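RNA-seq of 9 tissues was deposited as one gene table with 54752 rows. According to the study's methods and the labels, poly(A) RNA (ribosomal depletion in thymus) went into strand-specific SureSelect libraries that were read in single 76-cycle runs. Reads were aligned by STAR 2.6.1 to mm10 and quantified by RSEM 1.3.1. The authors deposited RSEM expected counts, TPM and FPKM per gene. The deposited expected counts are unnormalised and were rounded to whole numbers for the tests. The deposited TPM, relative to all transcripts of a library, served for levels between genes and tissues and for limma. The deposited FPKM were not used. RSEM shares reads between near-identical genes. Gene symbols and strands follow GENCODE vM21.

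Genes with low counts were removed by edgeR's filterByExpr by tissue. edgeR 4.0.16 (R 4.3.3) with TMM factors and the quasi-likelihood test was fitted to mouse and tissue, and genes with a Benjamini-Hochberg adjusted p under 0.05 were called. The SE of a log2 fold change is its size divided by the square root of F. For interactions, the 12 libraries of each of 2 groups entered 1 fit with a term for tissue by group. The share of mitochondrially encoded counts was tested by an exact permutation of signs within mice. Fits were repeated with limma 3.58.1 for genes with a mean of at least 5 TPM, on log2(TPM + 1) or log2(TPM + 0.1), with DESeq2 1.42.0, with other scaling and filters, no mouse term, and leaving out each mouse. Centring the TPM scale was added after the data were seen. The fits were tested on simulated counts in which few genes changed, evenly in both directions. That setting differs from these depots and cannot speak to the choice of scale. Same-numbered libraries come from the same mouse, and their deviations from the tissue means over 10345 genes correlated by 0.225, 0.189, 0.114, -0.00802, 0.21 and 0.0676 for mice 03, 05, 06, 07, 08 and 10. A fold against libraries all at 0 is a lower bound from 3 counts per library, for counting error only.

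The gene lists and members were chosen with earlier results of these data known. Named are up to 12 genes per direction with the largest log2 fold change among called genes that did not overlap and had a mean of at least 20 TPM. In each list the 4 called members with the smallest adjusted p, the one with the highest TPM, the largest fold in each direction and those called against the majority are named. Also named are Ucp1, Lep, Nfe2l2, the Cox, Cide and Ucp paralogs, and up to 6 genes per interaction. Other genes named were chosen after their values were seen. Some genes that meet these rules are not reported here.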

Additional observations from a re-analysis of the deposited data

Results flagged for a closer look

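In 29 of 302 groups of 6 libraries, namely each depot for the genes named in the comparisons that reached 1 CPM, the marker list sums and the mitochondrially encoded share, 1 library stood apart from the other 5 by Dixon's test (critical value 0.625). Chance alone does so in about 1 of 20 independent groups of normally spread values. These groups share libraries and some genes were picked after their values were seen, so 29 of 302 cannot be set against that rate. In iBAT, mouse 03 stood apart for Acta1 (19.6 CPM against 0.176 to 0.695), Atp2a1 (18.5 against at most 0.922), Ckm (7.56 against at most 0.442), the summed skeletal muscle markers (190 against 60.2 to 81.8), Mfsd2a (175 against 3.27 to 57.9) and Alb (36.5 against at most 7.12).

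The iBAT library of mouse 08 stood apart for 10 genes. It was high for Lep (44.6 CPM against 4.71 to 18.9), Sncg (18.5 against 5.54 to 9.78), Abcd2 (137 against 58.9 to 82.6), Cd55 (10.3 against 4.69 to 6.62), Ighm (23.5 against 3.65 to 10.4), Inhbb (2.55 against 0.442 to 1.17) and Thbs1 (4.25 against 2.05 to 2.67). It was low for Nfe2l2 (85.4 against 100.5 to 105), Cycs (275.7 against 340.1 to 376) and Flt1 (148 against 198 to 224).

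In the iBAT of mouse 10, Angptl8 (107 CPM), Cry2 (78.6), Fgf21 (1.42) and Oma1 (12.6) were above the other libraries, which reached 51.3, 51.6, 0.533 and 9.81 CPM. Myl1 was at 71.5 CPM in the iBAT of mouse 05 against 57 to 61.3. In eWAT, mouse 10 stood apart for Alb (196 CPM against 9.93 to 52.9) and Angptl8 (25.2 against 3.31 to 8.67), mouse 08 for Slc2a4 (217 against 162 to 165) and Cd36 (3377 against 2756 to 2944), and mouse 07 for Cox8a (187 against 220.5 to 233) and Jchain (24.9 against at most 4.31). Acadvl was at 130 CPM in the eWAT of mouse 03 against 111 to 117, and Ebf2 at 31.4 in that of mouse 05 against 39.6 to 43.8.

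The tissue difference changed with the knockout, by the edgeR test of the interaction, most clearly in 6 genes. The log2 difference of Map2, a microtubule-associated protein, went from -2.05 in GC_WT to 0.55 in GC_KO (change 2.59 ± 0.27, adjusted p = 0.00217), and that of Slc7a8, an amino acid transporter, from -0.22 to 2.70 (change 2.93 ± 0.34, adjusted p = 0.00355). The change was 0.69 for Gstm2, -1.61 for Vcpkmt, -1.32 for Plcl1 and 0.66 for Ehd1. Map2 was low in both GC_WT depots, with medians of 0.345 TPM in eWAT and 0.5 in iBAT. Plcl1 had 4.87 TPM in eWAT and 0.26 in iBAT. Medians of Slc7a8, Gstm2, Vcpkmt and Ehd1 were at least 1.19 TPM in both depots.

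With flight, the 6 smallest adjusted p-values belonged to genes that moved both ways. The difference of Gm13301 changed by -3.13, that of Eme2 by -1.26 and that of Cntfr, a cytokine receptor subunit, by -3.01, from -1.34 in GC_WT to -4.33 in FL_WT. Pold4, a DNA polymerase subunit, changed by 1.63 and Gstm1 by 1.24. Hsd11b1, which regenerates active glucocorticoid in fat, went from -0.83 to 0.50 (change 1.303 ± 0.12, adjusted p = 4.44e-05). On the TMM scale it was thus higher in iBAT on the ground and higher in eWAT after flight. On the TPM scale its GC_WT medians were 89.6 in eWAT and 60.2 in iBAT, so its direction on the ground depends on the scale.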

How the results depend on the processing

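The number of genes called was 10572, and 10056 with DESeq2, 10550 with its size factors in edgeR, 11548 without a filter on low counts, 10478 without mitochondrially encoded genes, 11569 with all 4 groups in 1 fit, and 10104 to 10362 with a mouse left out. The split by direction differed with the scale. limma on log2(TPM + 1) gave 9090 genes higher in eWAT and 702 in iBAT, log2(TPM + 0.1) gave 9078 and 703, and no filter on TPM gave 14554 and 1174. Once the median of all genes was taken out, a choice made after seeing the data, Pde3b was at 0.002 with and without that filter, and Gata3 at -0.404 and Gm13301 at -0.126 without it, each opposite in sign to edgeR. Of 253 named genes called, 252 kept their call under DESeq2 and 248 to 252 with a mouse left out, whereas limma on TPM kept 221, 228 and 239 after centring (with 22, 22 and 0 without a value) and turned the sign of 34, 34 and 36 before it. The interaction with the knockout counted 22 genes, 99 with DESeq2 and 35 with limma, and that with flight 1440 and 2319 with limma. The cause of these shifts was not tested.

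Without the replicate block, which pairs the depots of a mouse, 10493 genes were called, the interactions counted 23 and 1353 genes, and 247 of the 253 named genes kept their call. The difference in mitochondrially encoded share was -22 without the block (exact permutation p = 0.00216) and -22.4 to -21.3 with a mouse left out, where 5 pairs allow no exact permutation p under 0.0625. At these depths genes of a few counts per library were mostly removed by the filter, so that a difference there was not detectable.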

Other observations

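Of the 16 genes of the circadian clock list, 3 were higher in eWAT (Per3, Cry2, Dbp) and 9 in iBAT, with a median log2 difference of -0.46 (0.95 on the TPM scale). Nr1d1, a repressor of the clock loop, was at 64.7, 51.0 and 31.99 CPM in the eWAT of mice 03, 05 and 06, and at 7.91, 6.9 and 10.3 in that of mice 07, 08 and 10. In iBAT the same mice had 37.2, 35.1 and 24.6 CPM, and 14.7, 9.19 and 24.1. Arntl, the activator of the loop, went the other way, with 0.98, 2.36 and 5.13 CPM in the eWAT of mice 03, 05 and 06 and 17.1, 21.2 and 19.9 in that of the other 3. In iBAT Arntl was at 12.2, 6.5 and 12.7 CPM, and at 23.5, 29.97 and 28.1. The summed TPM of the list in eWAT was 553, 467 and 455 in mice 03, 05 and 06 and 363, 297 and 375 in mice 07, 08 and 10. In iBAT the sum did not divide the mice in this way, with 239, 216 and 251 in mice 03, 05 and 06 and 153, 164 and 321 in mice 07, 08 and 10. Such sums add genes that went opposite ways, such as Nr1d1 and Arntl, so they say little about the single genes. These clock genes were picked after their values were seen, and the times at which the mice were dissected were not used here.

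Ighm varied from 140 to 548 CPM among eWAT libraries, and Jchain, the joining chain of secreted IgM and IgA, reached 24.9 CPM in the eWAT of mouse 07 against at most 4.31 in the others. Without mouse 07 the log2 difference of Jchain was 1.70, against 2.86 with it.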
